A study of Danio rerio with 26 samples.

Results

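The genes cd22, ncam3, CASKIN2, nme2a, pax4 and hgfa form 3 pairs of chromosome neighbours, cd22 with ncam3, CASKIN2 with nme2a and pax4 with hgfa. They were selected on their lower counts in brains of 3 year old zebrafish than in brains of 1 year old zebrafish at the same rotenone concentration, and they are 6 of the 32105 genes counted. Each symbol matched 1 row of both count tables. The difference between ages is therefore given as a description with no p-value. The fish at the lower concentration did not enter the choice. Variation between fish of the same group was not the ground of the choice. At the higher concentration it comes from the same libraries, so there it is not independent of the choice.

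Rotenone is a plant compound that blocks complex I of the mitochondrial respiratory chain. The series holds 26 brain libraries from male zebrafish (Danio rerio), of which 10 came from 1 year old fish labelled rotenone 3.75 nM, 9 from 1 year old fish labelled rotenone 37.5 nM and 7 from 3 year old fish labelled rotenone 37.5 nM. Fish of 1 year carry the strain label AB JxTu and fish of 3 years the label AB JxTu Tg(flk:mCherry), a transgene whose name gives the flk promoter and a red fluorescent protein. Age and strain label cannot be told apart, and all fish carry a rotenone label, so no untreated level is given here. Counts of the 3.75 nM fish were deposited in a separate table, so that concentration and table cannot be told apart either. Every sample title holds a different fish number, and neither tanks nor pooling are mentioned in the labels, so p-values measure the spread between these libraries.

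The genes encode unlike proteins. Cd22 belongs to the Siglecs, immunoglobulin-type receptors that bind sialic acid on cell surfaces, and in mammals CD22 restrains signalling of the B cell receptor. Ncam3 is a neural cell adhesion molecule, a family of immunoglobulin-type proteins that join neurons to each other. Caskin proteins are scaffolds that in mammals were named after CASK, a protein of the presynaptic membrane. The neighbour nme2a encodes a nucleoside diphosphate kinase, which passes phosphate between nucleotides. Pax4 is a paired-box transcription factor that in mice directs the formation of insulin-producing cells. The gene hgfa encodes hepatocyte growth factor, a secreted ligand of the receptor tyrosine kinase Met. Neighbouring genes may share regulatory DNA and tend to be inherited together.

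Library totals ran from 20.6 to 36.0 in units of 1000000 counts, and values are given as counts per 1000000 (CPM) with library sizes scaled by the trimmed mean of M-values. At 3 years 570 of 19887 genes tested (2.87%) were lower than at 1 year and 37.5 nM by edgeR's quasi-likelihood test at an adjusted p under 0.05, and 979 (4.92%) were higher. All 6 genes are among the 570, and this follows from how they were chosen. The call of CASKIN2 was lost in 12 of 16 fits that left out 1 library, and those of cd22, ncam3, nme2a and hgfa in none, while pax4 was called in the 9 such fits in which it passed the filter on low counts. With fewer libraries more calls were lost: those of all but nme2a in the lower run of sample numbers, those of CASKIN2 and nme2a in the higher run, and those of CASKIN2 and hgfa without the libraries of high tissue scores described at the end, with pax4 under the filter in the latter 2 fits. In 58 genes (0.292%) all 7 fish of 3 years lay below all 9 fish of 1 year at 37.5 nM. The genes ncam3, nme2a, pax4 and hgfa were of that kind (4 of 6), again through the choice. In whole brains, fewer cells of a type and less RNA per cell cannot be told apart.

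**Figure D1:**
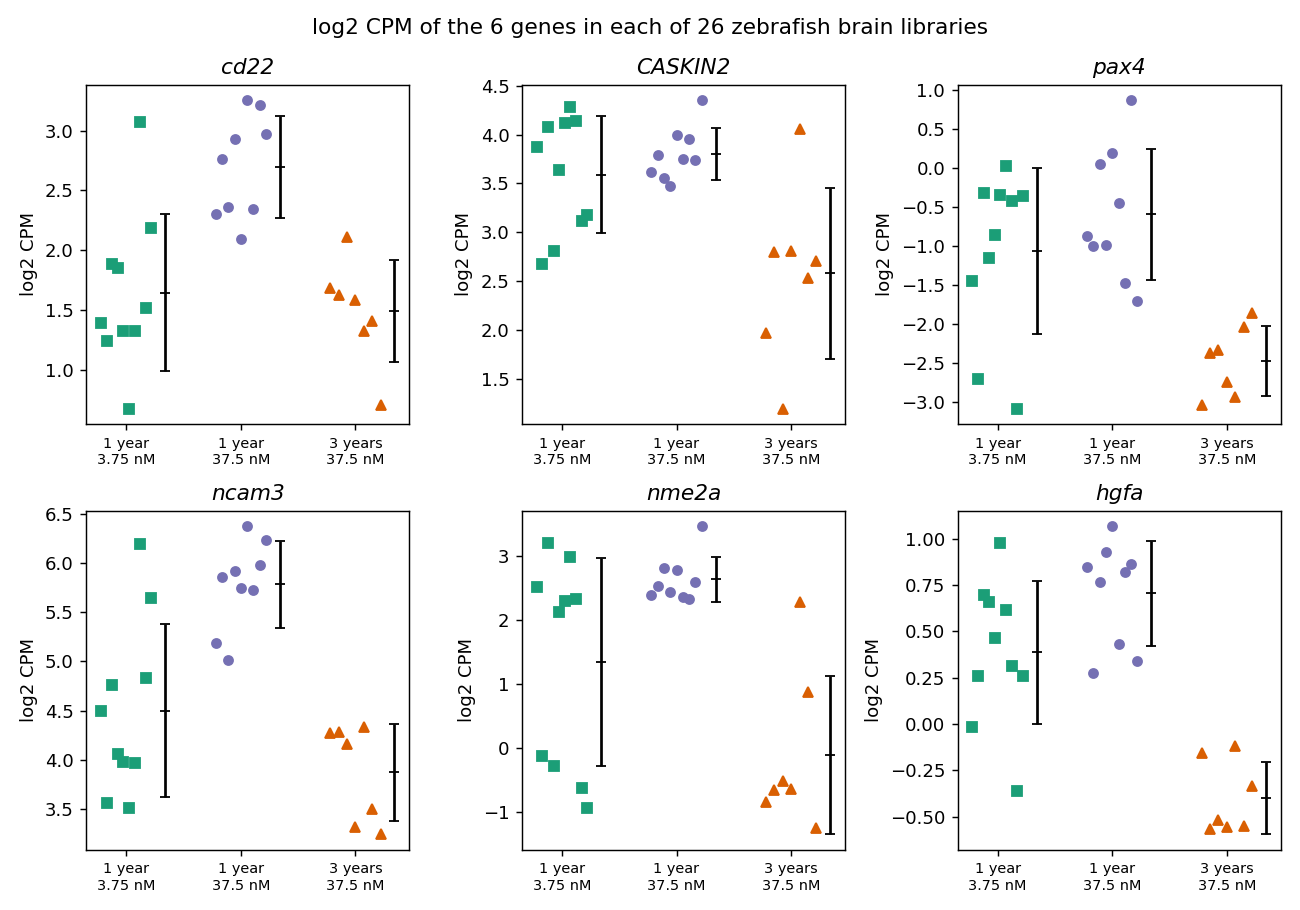
Level of each gene as log2 CPM (vertical axes, each with its own range) in every library of the 3 groups (horizontal axes: age and rotenone concentration), with 1 symbol per library and the group mean ± SD beside it. The 3 year fish lie below all 1 year fish at 37.5 nM for ncam3, nme2a, pax4 and hgfa, while 1 fish of 3 years lies among the 1 year fish for cd22 and for CASKIN2.

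The cd22 gene, of the Siglec receptor, and its neighbour ncam3, of the adhesion molecule, were lower at 3 years and also low in most 1 year fish at 3.75 nM. The level of cd22 ran from 4.20 through a median of 6.72 to 9.45 CPM in 1 year fish at 37.5 nM. In 3 year fish it was 3.14, 3.01, 4.26, 2.92, 2.43, 2.57 and 1.56 CPM from replicate 1 to replicate 7, and in 1 year fish at 3.75 nM it ran from 1.52 through 2.66 to 8.35 CPM. Replicate 3 of the 3 year fish, at 4.26 CPM, was the only one of the 7 inside the 1 year range at 37.5 nM. The means were 2.84 ± 0.818 (SD, n = 7) at 3 years against 6.64 ± 1.96 (n = 9) CPM, a log2 fold change of -1.23 (SE 0.22), or 2.35-fold lower.

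For ncam3 the level in 1 year fish at 37.5 nM ran from 32.3 through a median of 58.1 to 83.0 CPM. The 7 fish of 3 years had 19.3, 19.5, 17.9, 9.90, 20, 11.2 and 9.39 CPM, all below the lowest 1 year fish at that concentration. In 1 year fish at 3.75 nM the level ran from 11.3 through 19.6 to 73.5 CPM, so that most of these fish were near the 3 year level while replicate 8 (73.5 CPM) and replicate 10 (49.8 CPM) were within the 37.5 nM range. The same replicates 8 and 10 had the highest cd22, at 8.35 and 4.47 CPM. The age difference of ncam3 at 37.5 nM was -1.91 (SE 0.22) on the log2 scale, from 57.2 ± 16.3 (SD, n = 9) to 15.3 ± 4.87 (n = 7) CPM, or 3.76-fold lower.

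Set against the 1 year fish at 3.75 nM, the same 3 year fish gave a log2 fold change of -0.25 (SE 0.29) for cd22 and -0.82 (SE 0.37) for ncam3. Below the 3.75 nM median lay 3 of 7 fish of 3 years for cd22 and 6 of 7 for ncam3. Without replicate 8 of the 3.75 nM fish the difference of cd22 was 0. This contrast shares the 3 year fish with the one that chose the genes.

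The comparison of 37.5 with 3.75 nM in 1 year fish asks whether the level followed the concentration. The fish at 37.5 nM also entered the choice of the genes, which were taken for being higher in them than in 3 year fish, so the differences below are not independent of that choice and their p-values carry no support of their own. In all, 10 of 19691 genes tested (0.0508%) passed edgeR's quasi-likelihood test in either direction, and 0 of the 6 genes did. At unadjusted p under 0.05 there were 1821 genes, and DESeq2 called 65. The values of cd22 and ncam3 at 37.5 nM were above the 3.75 nM median in 9 of 9 fish each, with log2 differences of 0.97 (SE 0.26, 95% interval 0.47 to 1.47, edgeR adjusted p = 0.297) and 1.07 (SE 0.32, 0.45 to 1.70, adjusted p = 0.377). The groups overlapped for both genes. For cd22 the call changed with DESeq2 (adjusted p = 0.0491) and without replicate 8 of the 3.75 nM fish, where the difference was 1.22 (edgeR adjusted p = 0.023).

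From fish to fish within a group, cd22 and ncam3 varied together in 1 year fish. In the 10 fish at 3.75 nM Pearson's r of log2 CPM was 0.900 (two-sided permutation p = 0.00036, 0.00324 adjusted over the 9 pair and group combinations) and Spearman's rho was 0.939 (permutation p = 0.00019, adjusted 0.00171). Without the 2 libraries farthest from the cd22 median r was 0.775. For each pair these 2 libraries were picked on the first gene alone (cd22, CASKIN2 or pax4). In the 9 fish of 1 year at 37.5 nM r was 0.745 (exact permutation p = 0.0186, adjusted 0.0451) and rho 0.833 (exact p = 0.00827, adjusted 0.0372), and r was 0.806 without the 2 farthest libraries. Leaving out 1 library put the adjusted p of that r above 0.05 in 7 of 9 cases (0.0586 to 0.145 by exact permutation), all but those without replicate 3 or replicate 5. In the 7 fish of 3 years r was 0.562 (exact permutation p = 0.206, adjusted 0.209) and rho 0.286 (exact p = 0.556, adjusted 0.613), and r without the 2 farthest libraries was 0.091. The correlations of the 3 groups were not tested against each other.

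The ratio of their counts was also read in each library. By that measure ncam3 had 4.70 to 11.2 times the counts of cd22 at 3.75 nM (median 7.45), 6.38 to 12.8 times in 1 year fish at 37.5 nM (median 8.65) and 3.39 to 8.24 times at 3 years (median 6.04), and the 3 ranges overlapped. The gene models of cd22 and ncam3 overlap in the RefSeq annotation of assembly GRCz12tu, and the library kit does not mark strand, so reads from the shared stretch cannot be told apart. The counts used the build GRCz10, whose gene models were not used here.

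**Figure D2:**
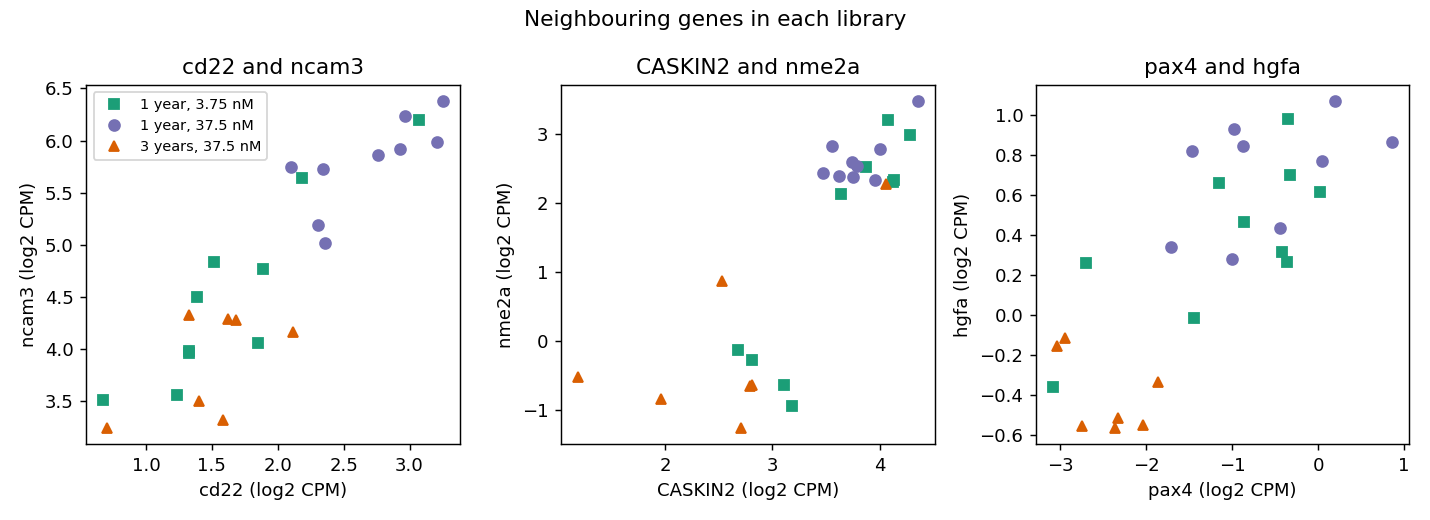
Log2 CPM of 1 gene of each pair against its neighbour, with 1 symbol per library (squares, 1 year and 3.75 nM; circles, 1 year and 37.5 nM; triangles, 3 years and 37.5 nM). The cd22 and ncam3 values rise together within the 1 year groups. In the second pair nme2a splits, with 4 fish at 3.75 nM and most fish of 3 years low. One fish of 3 years is near the high values and replicate 6 of the 3 year fish lies between. At 3.75 nM the largest gap is 2.26 log2 units for nme2a and 0.46 for CASKIN2.

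For CASKIN2, the scaffold gene, 1 year fish at 37.5 nM ran from 11 through a median of 13.4 to 20.3 CPM. The 3 year fish had 3.82, 6.86, 2.21, 6.94, 16.6, 5.69 and 6.45 CPM, so that 6 of 7 were below the lowest of these 1 year fish and replicate 5 was inside their range. Fish of 1 year at 3.75 nM ran from 6.33 through 13.5 to 19.3 CPM and overlapped both other groups. The means were 6.94 ± 4.61 (SD, n = 7) and 14.1 ± 2.83 (n = 9) CPM at 37.5 nM, a log2 fold change of -1.03 (SE 0.29), or 2.04-fold lower.

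The neighbour nme2a, of the nucleotide kinase, ran from 4.96 through a median of 5.72 to 11 CPM in 1 year fish at 37.5 nM. In the 3 year fish it was 0.484, 0.562, 0.626, 0.569, 4.78, 1.76 and 0.346 CPM. Replicate 5 again stood close to the 1 year fish, and 5 of the other 6 were under 1 CPM. The log2 fold change was -2.26 (SE 0.48), or 4.79-fold lower, from 6.34 ± 1.90 (SD, n = 9) to 1.30 ± 1.60 (n = 7) CPM. Replicate 5 of the 3 year fish decides part of these values, since without it the difference was -3.11 for nme2a and -1.41 for CASKIN2. The score of skin and mucosa markers in replicate 5 was 1.90 log2 units above the median of the libraries. Replicate 7 of the 3 year fish had a higher score, 2.45 above the median, and the lowest nme2a of the group. With group means removed, r with the skin score over the 26 libraries was -0.09 for each of the genes. The part of skin in these values was not tested.

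In 1 year fish at 3.75 nM the nme2a level spanned a 20.3-fold range and split. Replicates 2, 4, 9 and 10 had 0.841, 0.754, 0.574 and 0.450 CPM, and the other 6 had 4.30 to 9.14 CPM, with a gap of 2.26 on the log2 scale between them. Replicates 2, 4, 9 and 10 also had the 4 lowest CASKIN2 values, 6.33, 6.92, 8.56 and 9.00 CPM, against 12.4 to 19.3 CPM in the other 6. Low values of both genes thus occurred in fish of either age. No labelled property other than the sample number separates these 4 fish from the other 6, and both runs of sample numbers hold 2 of them. Their mean log2 CPM of muscle markers was 1.177, 4.319, 1.113 and 0.777. In the other 6 it was 1.454 in replicate 6 and -0.342, -0.6, -0.049, -1.124 and -0.732 in replicates 1, 3, 5, 7 and 8. The ranges thus overlapped through replicate 6 alone. The part of muscle in the split was not tested.

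Over all 10 fish at 3.75 nM CASKIN2 and nme2a varied together, with r 0.906 (two-sided permutation p = 0.00271, adjusted 0.0122 over the 9 combinations) and rho 0.745 (permutation p = 0.0175, adjusted 0.0393). Without the 2 libraries farthest from the CASKIN2 median, replicates 2 and 4, r was 0.929. Replicates 9 and 10, with the lowest nme2a, stayed in, so that value still includes the split. Because the nme2a values fall into separate clouds, the r over all 10 fish includes the distance between the 4 low fish and the other 6. Within the 6 fish of the upper cloud at 3.75 nM r was 0.546 (exact permutation p = 0.243, adjusted 0.364 over the 3 correlations within clouds, a division chosen after seeing the data) and rho 0.371 (exact p = 0.497, adjusted 0.714). Over all 7 fish of 3 years r was 0.630 (exact permutation p = 0.161, adjusted 0.209) and rho 0.250 (exact p = 0.595, adjusted 0.613). Without replicate 5 r was -0.003 (exact permutation p = 0.997, adjusted 0.997) and rho -0.200 (exact p = 0.714, adjusted 0.714). In the 9 fish of 1 year at 37.5 nM r was 0.680 (exact permutation p = 0.0556, adjusted 0.100) and rho 0.200 (exact p = 0.613, adjusted 0.613). That r rests on replicate 9, which was highest for both genes, as it was 0.03 without that library and -0.107 without the 2 libraries farthest from the median. Without replicate 3 it was 0.813 (adjusted exact permutation p = 0.0418).

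The ratio of the counts differed more between libraries for this pair. In 1 year fish at 37.5 nM nme2a had 0.322 to 0.599 times the counts of CASKIN2 (median 0.426). At 3.75 nM the ratio ran from 0.050 to 0.545 (median 0.282) and at 3 years from 0.0536 to 0.310 (median 0.127). All 7 fish of 3 years thus lay below the 1 year fish at 37.5 nM in this ratio, by a narrow margin. Both genes were chosen on low counts in these 3 year fish, so this ratio is not independent of the choice. The share of other gene pairs with such a separation was not computed. Counts of nme2a at 3 years were 10 to 169 per library. The gene models of this pair do not overlap in the RefSeq annotation.

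Between concentrations at 1 year, CASKIN2 differed by 0.13 on the log2 scale (SE 0.20, 95% interval -0.26 to 0.52, edgeR adjusted p = 0.862), with 4 of 9 fish above the 3.75 nM median. For nme2a the difference was 0.69 (SE 0.47, interval -0.23 to 1.60, edgeR adjusted p = 0.656), with 9 of 9 fish above the 3.75 nM median and overlapping groups. The 3 year fish differed from the 1 year fish at 3.75 nM by -0.88 (SE 0.33) for CASKIN2 and -1.56 (SE 0.70) for nme2a, with 6 of 7 below the 3.75 nM median for each.

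The pax4 and hgfa genes, of the transcription factor and the growth factor, had few reads. For pax4 the counts were 1 to 7 per library at 3 years, 7 to 50 in 1 year fish at 37.5 nM and 1 to 31 at 3.75 nM, so its fold changes carry a large counting error. In 1 year fish at 37.5 nM its level ran from 0.232 through a median of 0.474 to 1.75 CPM. In 3 year fish it was 0.0484, 0.120, 0.125, 0.0759, 0.0565, 0.169 and 0.202 CPM, all below the 1 year fish at that concentration. At 3.75 nM it ran from 0.0441 through 0.576 to 0.941 CPM, and 8 of these 10 fish were above the highest 3 year fish. The log2 fold change between ages at 37.5 nM was -2.55 (SE 0.47), or 5.84-fold lower.

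For hgfa the 1 year fish at 37.5 nM ran from 1.14 through a median of 1.69 to 2.02 CPM. The 3 year fish had 0.822, 0.602, 0.626, 0.607, 0.848, 0.610 and 0.720 CPM, below all 9 of them, and the spread among the 3 year fish was small (0.691 ± 0.107 CPM, SD, n = 7). The 1 year fish at 3.75 nM ran from 0.706 through 1.24 to 1.90 CPM, with 7 of 7 fish of 3 years below their median and the groups overlapping at the lower end. The log2 fold change was -1.19 (SE 0.16), or 2.29-fold lower, against 1 year fish at 37.5 nM, and -0.87 (SE 0.19) against those at 3.75 nM. Of the 5 genes that could be fitted against the 3.75 nM fish, hgfa had the smallest SE there, and pax4 did not pass the filter on low counts.

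No gene of the 6 separated the 3 year fish from the 1 year fish at 3.75 nM without overlap, which 43 of 19952 genes (0.216%) did in the lower direction. Between concentrations at 1 year, pax4 differed by 0.46 (SE 0.43, 95% interval -0.39 to 1.31, edgeR adjusted p = 0.76) and hgfa by 0.31 (SE 0.17, interval -0.02 to 0.63, edgeR adjusted p = 0.576), with 4 and 7 of 9 fish above the 3.75 nM median.

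**Figure D3:**
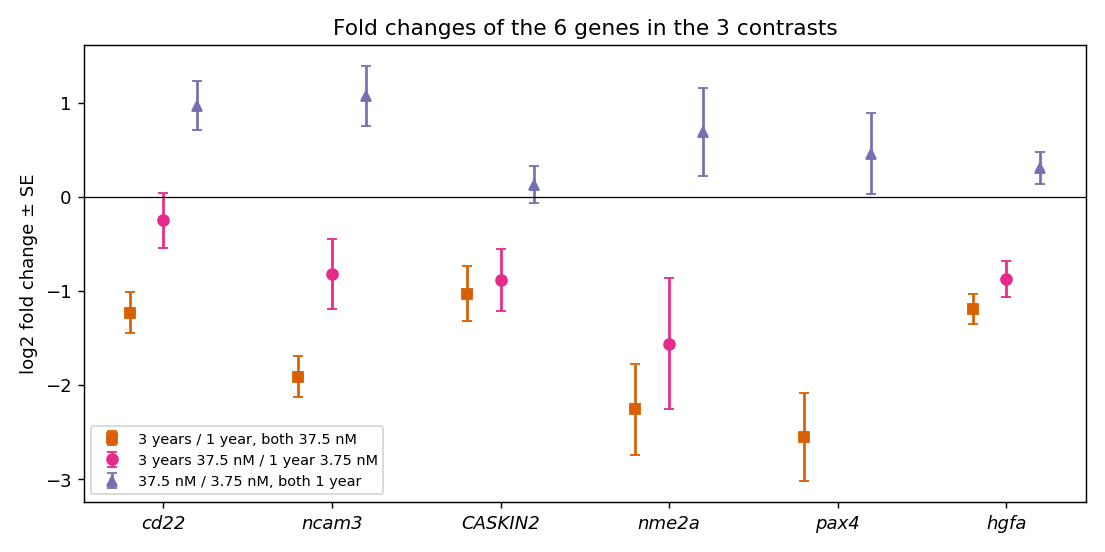
Log2 fold change ± SE of each gene (vertical axis) in 3 contrasts: 3 years against 1 year at 37.5 nM (squares), 3 years at 37.5 nM against 1 year at 3.75 nM (circles) and 37.5 against 3.75 nM at 1 year (triangles). The contrasts share libraries and are not independent. The cd22 value is -1.23 against 1 year fish at 37.5 nM and -0.25 against those at 3.75 nM, and pax4 has no point in the contrast with 3.75 nM because it did not pass the filter on low counts.

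From fish to fish, pax4 and hgfa varied together at 3.75 nM and not past the test in the other groups. Over the 10 fish at 3.75 nM r was 0.715 (two-sided permutation p = 0.02, adjusted 0.0451) and rho 0.745 (permutation p = 0.0172, adjusted 0.0393). The 2 fish with the lowest pax4 stood 1.26 log2 units apart from the other 8. Among those 8 r was 0.479 (exact permutation p = 0.231, adjusted 0.364) and rho 0.524 (exact p = 0.197, adjusted 0.591). Without those 2 fish the relation was weaker and did not pass, with fewer libraries in the test. Without replicate 9 alone, which was lowest for both genes, r was 0.477 (adjusted permutation p = 0.209), and the adjusted p was also above 0.05 without replicate 1, 3, 5, 6 or 7. In 1 year fish at 37.5 nM r was 0.465 (exact permutation p = 0.209, adjusted 0.209) and rho 0.550 (exact p = 0.133, adjusted 0.239), and r was 0.196 without the 2 farthest libraries. At 3 years r was -0.541 (exact permutation p = 0.206, adjusted 0.209) and rho -0.321 (exact p = 0.498, adjusted 0.613), and r was 0.688 without the 2 farthest libraries. Counting error in pax4 limits all of these. The hgfa counts were 1.00 to 17 times the pax4 counts over all libraries.

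The sample numbers form 2 runs, a lower and a higher one, with fish of each group in both, and the labels do not say what separates them. Both runs entered the choice of the genes, so the signs within them are not independent of it. The age difference at 37.5 nM was negative in both runs for each gene. Within the lower and the higher run it was -0.81 and -1.60 for cd22, -1.32 and -2.38 for ncam3, -1.50 and -0.82 for CASKIN2, -3.37 and -1.86 for nme2a, -2.47 and -2.63 for pax4, and -1.21 and -1.19 for hgfa. These within-run fits left out the filter on low counts, which pax4 did not pass in the higher run. The interaction of age and run passed edgeR's quasi-likelihood test for none of 19887 genes (1534 at unadjusted p under 0.05), with adjusted p from 0.572 to 0.995 for the 6 genes. Against the 3.75 nM fish, in contrast, cd22 was 0.27 in the lower run and -0.71 in the higher, and ncam3 was 0.02 and -1.49.

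To set the pairs beside other neighbours, the group mean was removed from each gene's log2 CPM and Pearson's r was taken over the 26 libraries, as a description. It was 0.812 for cd22 and ncam3, 0.742 for CASKIN2 and nme2a, and 0.528 for pax4 and hgfa. These values pool the groups. For CASKIN2 and nme2a, leaving out single libraries gave r from 0.03 to 0.813 in younger fish at the higher concentration. In the older fish it gave -0.003 to 0.745. At the lower concentration r was 0.906, and 0.546 within the upper nme2a cloud, so 0.742 includes the distance between the clouds. For pax4 and hgfa r was -0.541 in the older fish. In younger fish it was 0.715 at the lower and 0.465 at the higher concentration. The background was 12639 pairs of genes next to each other among the genes matched to RefSeq. Of 49560 RefSeq genes 17001 were matched, so unmatched genes may lie between the partners of a background pair. No RefSeq gene lies between the partners of the pairs studied, so the comparison is with a looser set. The background median was 0.047 and the 95th percentile 0.611. A value at least as high as the pooled r was found in 0.902%, 1.98% and 7.86% of background pairs. The 1107 pairs with overlapping gene models had a median of 0.076 and a 95th percentile of 0.654. All of these pairs share the same 26 libraries and their depth. The 12 pairings of the 6 genes that are not neighbours had r from -0.300 to 0.325, with a median of 0.064.

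Among 20451 other genes, ncam3 had the highest r with cd22, and cd22 ranked 2 for ncam3. In the same order nme2a ranked 9 for CASKIN2 and CASKIN2 ranked 3 for nme2a, while hgfa ranked 378 for pax4 and pax4 ranked 84 for hgfa. The nearest other genes for cd22 were EGLN3 (0.804), a prolyl hydroxylase of hypoxia-inducible factors, NCF1 (0.777), a subunit of the phagocyte NADPH oxidase, and SLC37A2 (0.775), a sugar phosphate transporter. For ncam3 they were HIC1 (0.815), a transcriptional repressor, EGLN3 (0.767) and ANKRD37 (0.752). EGLN3 was thus near both members of that pair.

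For CASKIN2 the nearest genes were WTIP (0.798), svild (0.795) and MAPK10 (0.785), a stress-activated kinase of neurons, and for nme2a SLC16A8 (0.718), a monocarboxylate transporter, CBY1 (0.715) and METTL26 (0.663). For pax4 they were DGKH (0.739), ppdpfb (0.733) and mgaa (0.730), and for hgfa znf1185 (0.731), YRDC (0.643) and gkup (0.640). Of the nearest genes given for these 4, none was shared.

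The genes around the pairs were read in the same comparison of ages. In the RefSeq order of GRCz12tu the pairs lie on chromosomes 16 (cd22 and ncam3), 12 (CASKIN2 and nme2a) and 4 (pax4 and hgfa), with no other RefSeq gene between the partners. Of the 4 nearest matched genes on each side of a pair, none that could be tested was lower by edgeR's quasi-likelihood test. Around cd22 and ncam3 the 6 tested genes had log2 fold changes from -0.14 (si:rp71-77l1.2, SE 0.36) to 0.32 (sult2st3, SE 0.35), and TMEM147, on the ncam3 side, was at 0.06 (SE 0.07).

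Around CASKIN2 and nme2a pkd1b, a polycystin family gene, was 1.03 higher (SE 0.23, edgeR adjusted p = 0.0127) and ORMDL3, a regulator of sphingolipid synthesis, 0.68 higher (SE 0.20, edgeR adjusted p = 0.0416). The neighbour st6galnac1.2, a sialyltransferase gene on the CASKIN2 side, was at 0.09 (SE 0.35) and MRPL27 on the nme2a side at -0.05 (SE 0.07). The group-centred r of pkd1b was -0.579 with CASKIN2 and -0.624 with nme2a over the 26 libraries. Around pax4 and hgfa SND1, beside pax4, was at 0.14 (SE 0.04) and cacna2d1a, beside hgfa, at 0.07 (SE 0.13), and the others tested ran from -0.20 (drd4-rs, SE 0.17) to -0.05 (lepb, SE 0.49).

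**Figure D4:**
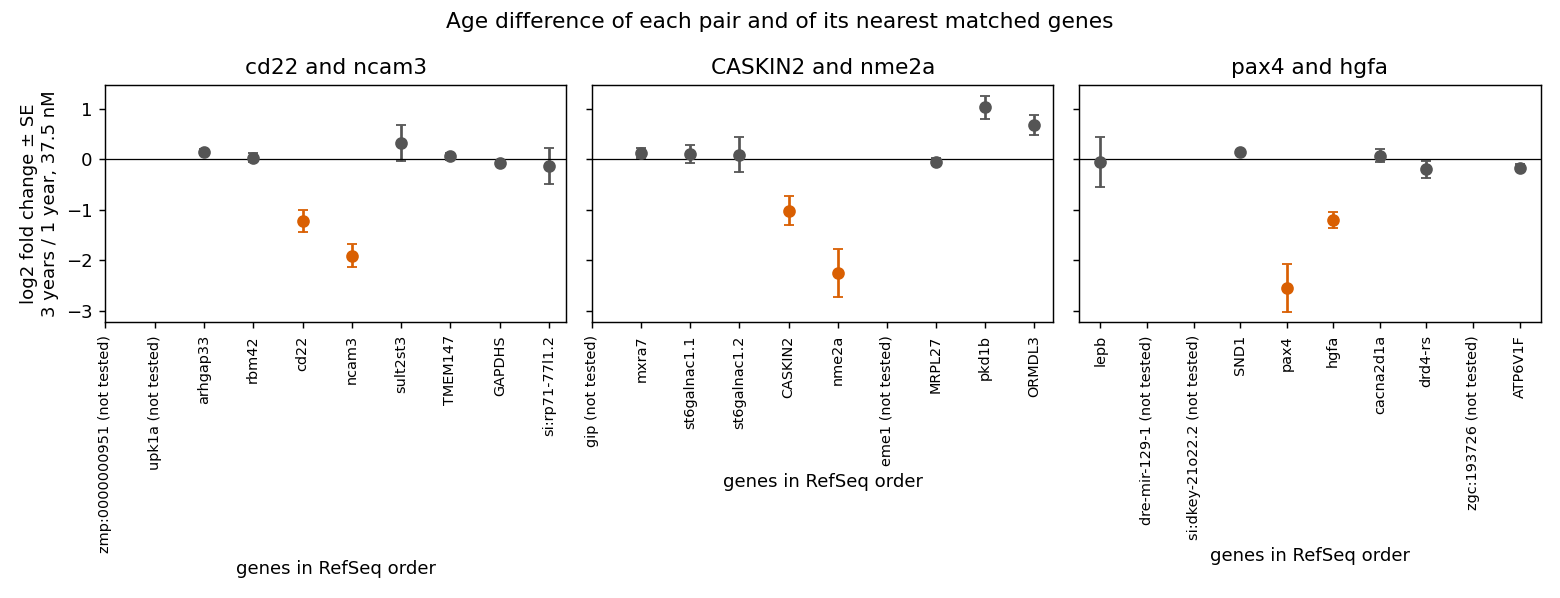
Log2 fold change ± SE between 3 and 1 year at 37.5 nM (vertical axis) of each pair (orange) and of the 4 nearest matched genes on either side (grey) in the RefSeq order, with genes that did not pass the filter named as not tested. The pairs lie at -1.03 or lower, and the tested genes around them between -0.20 and 1.03.

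Lists of genes from related families and pathways were read in the same comparison of ages. The median log2 fold change of all genes tested was 0.007 there, with 2.87% of them lower and 4.92% higher. Each list includes a gene of the pairs, whose lower call follows from the choice. Of 17 Siglec and B lymphocyte genes tested 3 were higher, cd22 was the 1 lower and 13 did not pass (median 0.11). Immunoglobulin heavy chain ighm rose by 1.95 (SE 0.57, edgeR adjusted p = 0.0451), PTPN6, a phosphatase that CD22 recruits in mammals, by 0.69 (SE 0.17, adjusted p = 0.0226) and SWAP70 (ENSDARG00000051819) by 1.11 (SE 0.31, adjusted p = 0.038). The other gene named SWAP70 (ENSDARG00000057286) was at 0.10 (SE 0.07) and did not pass. Its mean at 3 years was 75.4 CPM, against 1.20 CPM for the one that rose. The B cell receptor chains cd79a and cd79b did not pass the filter, with group means from 0.0564 to 0.214 CPM. The related Siglec genes mag, of myelin, and siglec15l were at 0.27 (SE 0.13) and 0.26 (SE 0.22) and did not pass.

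Of 30 neural adhesion genes of the immunoglobulin family 3 were higher, 2 lower and 25 did not pass (median -0.06). Beside ncam3 the lower gene was NCAM2 (ENSDARG00000017466) (-0.35, SE 0.07, edgeR adjusted p = 0.00757), while the 2 genes named NCAM1 were at -0.08 (SE 0.06) and -0.07 (SE 0.06). The other gene named NCAM2 (ENSDARG00000098523) was at -0.05 (SE 0.13) and did not pass. Higher were ntm (0.54, SE 0.14), NTM (ENSDARG00000013005; 0.75, SE 0.22) and cadm3 (0.32, SE 0.10), all adhesion molecules of neurons.

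Of 25 genes listed around CASK and the Caskin scaffolds 1 was higher and 4 were lower (median 0.00). Apart from CASKIN2, apba2a (-0.28, SE 0.06), nrxn2a (-0.23, SE 0.06) and nrxn3b (-0.29, SE 0.08) fell and APBA1 (ENSDARG00000103848) rose by 0.43 (SE 0.12); the nrxn genes encode neurexins of the presynaptic membrane. The paralog CASKIN1 was at 0.02 (SE 0.05) and CASK itself at 0.10 (SE 0.05), neither past the test. Of 9 nucleoside diphosphate kinase genes only nme2a passed (median -0.02). Its relative nme2b.2 was at -2.96 with an SE of 1.07 and did not pass (edgeR adjusted p = 0.098). Its group means were 77.0 CPM at 1 year and 37.5 nM, 39.1 CPM at 1 year and 3.75 nM and 9.95 CPM at 3 years. The mean log2 CPM of the kinase list was highest, at 3.713, in replicate 4 of the 1 year fish at 37.5 nM. That library also had the highest mean log2 CPM of muscle markers, at 5.683. The part of this library in the nme2b.2 difference was not tested.

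Of 21 genes of the PAX family and of endocrine lineage factors only pax4 passed (median 0.17), and pdx1, a factor of the pancreas, was at -1.35 (SE 0.78). Of 18 HGF and MET pathway genes 4 were higher and hgfa was the only lower one (median 0.22). The receptor gene MET was at 0.14 (SE 0.12) and did not pass. Higher were mst1ra (1.22, SE 0.31), which encodes the related receptor Ron, plxnb2b (1.82, SE 0.35) and plxnb2a.1 (0.20, SE 0.05), which encode semaphorin receptors, and GAB1 (0.20, SE 0.06), an adaptor of MET. Between concentrations at 1 year no gene passed edgeR's test in any of the 6 lists.

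The tissue label was read against marker genes. The mean log2 CPM of the neuron list lay between 7.25 and 7.72 in all 26 libraries, that of oligodendrocytes between 7.33 and 8.38 and that of radial glia between 6.31 and 6.97. Beside the 4.92% of all genes that were higher and the 2.87% that were lower, markers of several cell types were called between ages. Of 20 microglia and macrophage markers 11 were higher at 3 years and 0 lower, and of 12 T cell and granulocyte markers 7 were higher and 0 lower, against 0 of 17 neuron markers higher and 3 lower. The 7 were the T cell markers cd4-1, cd8a, cd247l, ZAP70, lck, il7r and il2rb. The granulocyte markers lyz (0.14, SE 0.72), MMP9 (1.11, SE 0.55) and mmp13a (-0.40, SE 0.52) did not pass. The mean log2 CPM of the microglia list ran from 3.47 to 4.04 in 1 year fish at 37.5 nM and from 3.74 to 4.68 at 3 years. Of 18 endothelium markers 2 were lower, tek (-0.68, SE 0.16), a receptor kinase, and CLDN5 (ENSDARG00000043716, -0.53, SE 0.15), a junction protein. The other gene named CLDN5 (ENSDARG00000014059) was at -0.27 (SE 0.18) and did not pass. The markers kdrl (-0.21, SE 0.16) and KDR (-0.30, SE 0.20) did not pass either. The 3 year strain carries the flk transgene, whose part in these values was not tested. Of 6 pituitary markers 2 were lower, prl2 (-1.70, SE 0.39) and scg2b (-0.43, SE 0.09). Of 17 muscle markers 1 was lower and 16 did not pass, and the mean log2 CPM of that list ran from -0.74 to 5.68 in 1 year fish at 37.5 nM and from -0.97 to 0.82 at 3 years. The part of these tissues in the lower levels of the 6 genes was not tested.

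Over the 26 libraries with group means removed, cd22 had r of -0.04 with the microglia score and 0.03 with the Siglec and B lymphocyte score, and its highest r with any marker score was 0.59, with radial glia. The highest values were 0.44 (endothelium) for ncam3, 0.66 (neurons) for CASKIN2, 0.30 (neurons) for nme2a, 0.21 (radial glia) for pax4 and 0.44 (skin) for hgfa. With muscle r was -0.38 for nme2a, -0.36 for CASKIN2, -0.30 for pax4, -0.11 for ncam3, -0.06 for cd22 and 0.20 for hgfa. These are descriptions over libraries of unequal depth. Of 26 libraries, 12 had a score of muscle, eye, pituitary or skin markers over 1.5 log2 units above the median. Without those at 37.5 nM, which include replicate 5 of the 3 year fish, the age difference was -3.19 for nme2a and -1.54 for CASKIN2. Without replicate 5 alone it was -3.11 and -1.41. Without the high-score libraries it was -1.19 for cd22, -1.89 for ncam3 and -1.13 for hgfa, and pax4 was under the filter.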

How the data were processed

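Brain RNA of 26 zebrafish was sequenced. Per the labels' protocols libraries were made with the TruSeq RNA kit v2, which leaves strand unmarked. CASAVA 1.8.2, STAR 2.4.1d, featureCounts 1.4.6-p4 and build GRCz10 are named, without role or order, per the submitters' processing notes. The authors deposited whole-number read counts per gene, not normalized; a second pair of deposited tables was not used. Not given in the sources used here are how reads with several matches were handled, whether strand was used and which annotation release served.

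From the counts, edgeR 4.0.16 in R 4.3.3 gave quasi-likelihood tests (TMM, filterByExpr, robust fit, Benjamini-Hochberg adjustment at 0.05) over all genes, using the libraries of the groups compared. SE was taken as the size of the log2 fold change over the root of the F statistic, and 95% intervals are 1.96 SE either side. CPM used TMM library sizes over all 26 libraries, and log2 CPM a prior count of 2. Python 3.11.15 with SciPy 1.17.1 ran the permutation tests, exact below 10 libraries and with 100000 resamples otherwise. Figures used matplotlib 3.10.9. Gaps over 1 log2 unit were taken to separate libraries, a rule chosen after seeing the data.

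Symbols named 26269 of 32105 genes. Gene order and overlap of gene models came from the start and end positions of RefSeq GRCz12tu, matching 17001 genes. Distances between genes were not used since builds differ. Of 310 list symbols 268 matched. Replicates are numbered in accession order. The members, gene lists and tests were chosen with earlier results of these data known. Named are the 6 members, the 4 nearest genes on each side and list genes past the test. Also named are the 3 most alike genes of each member with a mean log2 CPM of at least 1 and no clone name as symbol. Other list relatives were picked after their values were seen. The scripts were tested on simulated data. Alternatives covered DESeq2 1.42.0, filters, the run of sample numbers, tissue markers and single libraries left out.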

Additional observations from a re-analysis of the deposited data

Results flagged for a closer look

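Of 18 sets of values (6 genes in 3 groups), 1 had a library far from the others. In 1 year fish at 37.5 nM, replicate 9 had 11 CPM of nme2a, and its gap to the next highest library took 0.573 of the range of the 9, above Dixon's 95% critical value of 0.493. Chance gives such a gap in about 1 in 20 groups. The same library had the highest CASKIN2 of the group, at 20.3 CPM.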

How the results depend on the processing

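Every alternative used libraries on which the genes were chosen, so the sign of the age difference is not independent of that choice. The age difference at 37.5 nM stayed negative for all 6 genes in every alternative in which they were tested. It ran from -1.60 to -0.81 for cd22, -2.39 to -1.32 for ncam3, -1.54 to -0.83 for CASKIN2, -3.37 to -1.86 for nme2a, -2.75 to -2.41 for pax4 (14 of 24 alternatives) and -1.25 to -1.13 for hgfa. Values that moved by more than the spread were those of ncam3 in the lower (-1.32) and higher run (-2.39), and of nme2a in the lower run (-3.37) and without libraries of high tissue scores (-3.19). Genes called between ages numbered 1549, but 2899 with DESeq2, 16 in the lower run, 135 without libraries of high tissue scores and 942 to 2156 with 1 library left out, lowest without replicate 4 (942) or 7 (944) of the 3 year fish. Genes called between concentrations numbered 10, but 65 with DESeq2, 24 with run as a covariate, 18 with all 26 libraries in the fit and 2 to 12 with 1 left out. By edgeR they numbered 0 in the higher run (2454 at unadjusted p under 0.05) and 0 without high tissue scores (1953); DESeq2 was not run on these subsets. Against 3.75 nM fish, the lower run reversed cd22 (0.27) and ncam3 (0.02), and leaving out 1 library moved cd22 from -0.38 to 0. The correlation of cd22 and ncam3 in 1 year fish at 37.5 nM was 0.747 with relative log expression (adjusted permutation p = 0.0502), 0.806 without the 2 farthest libraries (0.0558) and 0.662 to 0.855 with 1 left out. That of CASKIN2 and nme2a there was -0.107 without the 2 farthest and 0.03 to 0.813 with 1 left out, and at 3 years it was -0.003 (without replicate 5) to 0.745 (without replicate 3). That of pax4 and hgfa at 3.75 nM was 0.706 with relative log expression (adjusted permutation p = 0.0502), 0.641 on CPM without a log (0.0904), 0.479 without the 2 farthest and 0.477 to 0.780 with 1 left out. Of the age calls of the 6 genes, 5 of 6 tested were lost in the lower run, 2 of 5 in the higher run and 2 of 5 without high tissue scores. The cause was not tested for any of these. Without high tissue scores, too few libraries remained for some correlations. No paired analysis was possible because the labels give groups no shared replicate numbers. Depth limits pax4 most, at 1 to 7 counts per 3 year library.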
